A study of Mus musculus with 14 samples.

Results

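AP-1 is a family of transcription factors, and the members described here were the 7 genes Fos, Fosb, Fosl1, Fosl2, Jun, Junb and Atf3. They were taken as every probe set whose gene symbol in the deposited table equals one of these names, which gave 9 of the 22626 probe sets tested, or 7 of 13095 genes. Fosl1 and Jun are each measured by 2 probe sets and the other genes by 1. AP-1 proteins act in pairs: a Jun protein pairs with a Fos protein, with another Jun protein or with an ATF protein such as Atf3, and the pair binds short palindromic DNA sites. Fos, Fosb, Jun, Junb and Atf3 are early response genes, whose mRNA appears quickly after growth factors, cytokines or stress act through MAP kinases and is short-lived, whereas Fosl1 and Fosl2 usually follow later. In the gut, AP-1 is known for its part in the response of epithelium to injury and, for Jun, in tumor growth downstream of Wnt signaling.

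The arrays came from male mice and fell into 4 groups. Colitis-associated colorectal tumors (CAC tumors, 4 arrays, 1 mouse each) grew in C57BL/6J mice after azoxymethane (10 mg/kg), a carcinogen, and 3 rounds of 2.5% dextran sodium sulfate, an agent that injures the colon lining, each of 7 days with 14 days of recovery after it. CAC control epithelium (2 arrays, each a pool of 5 mice) was tumor-free distal colon epithelium of C57BL/6J mice, and the labels do not say whether these mice had received either agent. Sporadic tumors (5 arrays, 1 mouse each) came from C57BL/6J mice with the Apc Min/+ mutation, an allele present in all cells that truncates a protein restraining Wnt signaling. Sporadic control epithelium (3 arrays, each a pool of 4 mice) was tumor-free distal colon epithelium labelled with the same Apc Min/+ strain, so tumors and controls of that model share the allele. The labels give no ages. Controls were purified epithelium, tumors were whole tissue, and tumors went through the same warm chelating incubation that was used to free the epithelium. All CAC arrays form experimental block 1 and all sporadic arrays block 2, so model and block cannot be told apart wherever the models are compared directly.

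Values are GCRMA intensities on a linear scale, and the median intensity of an array was between 15 and 18, so values under about 10 lie near the floor of the scale. Epithelial markers were present in every group, with a summed level over 9 markers of 46179 to 56797 in CAC tumors against 63397 to 65368 in CAC controls, and of 37469 to 44597 in sporadic tumors against 51194 to 53597 in sporadic controls. The sum over 10 fibroblast and matrix markers was 5911 to 13702 in CAC tumors against 163 to 288 in CAC controls, and 8416 to 16595 in sporadic tumors against 67 to 88 in sporadic controls. The sum over 9 myeloid markers was 4268 to 15566 in CAC tumors against 355 to 417 in CAC controls, and 3180 to 7724 in sporadic tumors against 347 to 416 in sporadic controls. Of these 9, 7 rose in CAC tumors and 8 in sporadic tumors, and 0 fell. In CAC tumors S100a9 read 225 to 7022, whereas Itgam read 6 to 8 and Adgre1 did not pass. The part of this difference in cell makeup in the AP-1 results was not tested. In such bulk samples, fewer cells of a type and less RNA per cell cannot be told apart. The sum over 5 smooth muscle markers was 507 to 1461 in CAC tumors against 52 to 57 in CAC controls, and 271 to 1123 in sporadic tumors against 50 to 51 in sporadic controls. Most of these tumor sums came from Acta2, at 391 to 1153 in CAC tumors and 226 to 912 in sporadic tumors. Of the 5 markers, 2 rose in CAC tumors and 1 in sporadic tumors, and 0 fell. In sporadic tumors Des read 7, Cnn1 5 to 8 and Myh11 8 to 18, so the sum does not stand for the whole list. The sum over 6 endothelial markers was 226 to 458 in CAC tumors against 90 to 116 in CAC controls, and 176 to 508 in sporadic tumors against 51 to 79 in sporadic controls. Of these 6, 2 rose in CAC tumors and 4 in sporadic tumors, and 0 fell. In all CAC tumors Cdh5 read 6 and Kdr 5, near the floor. The sum over 7 lymphocyte markers was 46 to 78 on all arrays, near the floor. Signs of RNA quality also moved with group in the CAC model: the mean log2 signal of 18S was 4.28 to 5.42 in CAC tumors against 5.74 to 5.81 in CAC controls, and the log2 ratio of the 3′ to the 5′ actin probe set was 0.74 to 0.83 in CAC tumors against 0.90 to 0.98 in CAC controls. In the sporadic model both overlapped, with 18S at 2.80 to 2.92 in tumors against 2.80 to 2.97 in controls and the actin ratio at 0.96 to 1.27 against 0.86 to 1.28. Their part in the results was not tested.

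The RefSeq promoter table (GRCm38.p6) held 6 of the 7 genes, all but Fosl1. The 120 bases before the start site are shown for 5 of them because 4 of these promoters share a short element, TGACG, the core of the cAMP response element that CREB and ATF factors bind, and the promoter of Jun has the related site TGACATCA. Capitals mark these sites (CGTCA in Atf3, which is TGACG on the other strand), a TATA box in Fos and CCAAT boxes in Junb and Jun. The sequences run 5′ to 3′ on the strand of the gene.
Fos, chr12:85473770-85473889, plus strand: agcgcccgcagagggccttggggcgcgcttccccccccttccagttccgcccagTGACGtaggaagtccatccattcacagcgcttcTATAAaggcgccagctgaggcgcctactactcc
Fosb, chr7:19310046-19310165, minus strand: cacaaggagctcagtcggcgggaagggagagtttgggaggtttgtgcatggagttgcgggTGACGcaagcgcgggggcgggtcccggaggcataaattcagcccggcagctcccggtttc
Atf3, chr1:191183334-191183453, minus strand: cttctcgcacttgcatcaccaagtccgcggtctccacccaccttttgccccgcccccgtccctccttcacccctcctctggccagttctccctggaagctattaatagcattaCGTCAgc
Junb, chr8:84978749-84978868, minus strand: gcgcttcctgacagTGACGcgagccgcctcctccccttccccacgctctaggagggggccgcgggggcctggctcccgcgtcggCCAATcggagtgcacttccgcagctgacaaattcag
Jun, chr4:95052223-95052342, minus strand: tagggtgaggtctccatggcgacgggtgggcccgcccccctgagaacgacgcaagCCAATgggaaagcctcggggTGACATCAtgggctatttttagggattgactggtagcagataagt
In the 250 bases before the start site, searched on both strands, TGACG was present in Fos, Fosb, Junb and Atf3, that is in 4 of 6 promoters, against 17.8% of the 32851 promoters in the table. The variant site TGANNTCA was present in Jun alone among the 6 and in 11.9% of all promoters; it can overlap TGACG but did not do so here. The AP-1 site TGANTCA, present in 6.75% of all promoters, and the CArG box, the site of serum response factor, present in 1.47%, were found in none of the 6. The TATA box motif TATAA was present in Fos and in 22.8% of all promoters. The CCAAT box was present in Jun and Junb and in 33.8% of all promoters. A match is a run of letters and not evidence of binding. Bases beyond these 250 were not searched, so no match here does not mean that a gene lacks the site.

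The results by gene begin with the Fos proteins, which cannot bind DNA without a partner. Fosb, an early response member, had the largest differences of the set. Its intensities were 9, 7, 5 and 9 in CAC tumors 1 to 4, against 74 and 33 in the CAC controls. They were 5, 14, 29, 78 and 224 in sporadic tumors 1 to 5, against 590, 923 and 875 in the sporadic controls. All tumors lay below all controls of their own model, the CAC tumors were at the floor, and the CAC controls lay within the range of the sporadic tumors. Fosb fell in sporadic tumors, with a log2 change of -4.59 ± 0.99 (SE, 24.1-fold lower, adjusted p = 0.00313, limma over all probe sets). In CAC tumors the log2 change was -2.76 ± 1.18 (SE, adjusted p = 0.0853), which did not pass the threshold of 0.05.

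Fos itself, the best-known early response gene of the family, was bright in all groups. Its intensities were 4795, 4188, 2938 and 3704 in CAC tumors, against 11683 and 9543 in CAC controls. They were 528, 1787, 4168, 5236 and 6275 in sporadic tumors 1 to 5, against 11776, 13575 and 14850 in sporadic controls. Neither model's tumors overlapped their controls, and the log2 difference between CAC and sporadic controls was -0.34 ± 0.85. Fos fell in sporadic tumors, with a log2 change of -2.33 ± 0.68 (5.05-fold lower, adjusted p = 0.0153). That call was lost without sporadic control 3 (adjusted p = 0.0549) and when only the sporadic arrays were fitted (0.0649). The CAC tumor change of -1.46 ± 0.80 (2.75-fold lower, adjusted p = 0.181) did not pass.

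Fosl2, a Fos protein that lacks a strong activation domain, was dim in 3 of the 4 groups. Its intensities were 21, 16, 22 and 20 in CAC tumors, against 29 and 24 in CAC controls. They were 15, 23, 26, 42 and 38 in sporadic tumors, against 75, 100 and 151 in sporadic controls. The sporadic controls stood above all other arrays. Fosl2 fell in sporadic tumors with the smallest adjusted p of the set (log2 change -1.95 ± 0.33, adjusted p = 0.000591), while the CAC change was -0.43 ± 0.39 (adjusted p = 0.444).

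Fosl1, which encodes the Fos protein Fra-1 and is linked to invasive growth in other tumors, was at the floor on most arrays. Probe set 1417487_at read 5 or 6 on all CAC arrays, tumor and control. It read 6, 6, 6, 13 and 39 in sporadic tumors 1 to 5, against 10, 46 and 21 in sporadic controls. Probe set 1417488_at read 6 on all CAC arrays and on 4 of the 5 sporadic tumors, with 31 in sporadic tumor 5, against 13, 27 and 27 in sporadic controls. Both probe sets thus exceeded the floor only in the sporadic model, in its controls and in 1 or 2 of its tumors, and the ranges of sporadic tumors and controls overlapped. Neither passed: the sporadic tumor changes were -1.06 ± 0.64 (adjusted p = 0.209) and -1.34 ± 0.51 (adjusted p = 0.0535). Both passed without sporadic tumor 5 (adjusted p = 0.0212 and 9.91e-05) and with the replicate number as a block (0.0246 and 0.00115). The block fit also gives sporadic tumor 5 no weight, and the numbers do not pair the samples, so it is no separate support. Probe set 1417488_at also passed with quantile normalization (0.0238) and without sporadic control 1 (0.0410). Without sporadic tumor 5, all remaining tumors read 6 by 1417488_at, so the size of its change is not measured there.

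Atf3, a stress-induced member of the ATF group that pairs with Jun proteins, behaved like Fosb at a higher intensity. It read 205, 363, 229 and 196 in CAC tumors, against 1228 and 891 in CAC controls. It read 127, 426, 477, 1010 and 2778 in sporadic tumors 1 to 5, against 5694, 6893 and 6649 in sporadic controls. Tumors and controls did not overlap in either model, and sporadic tumor 5 was above both CAC controls. Atf3 fell in sporadic tumors (log2 change -3.43 ± 0.76, 10.8-fold lower, adjusted p = 0.00365). The CAC change was -2.12 ± 0.90 (4.35-fold lower, adjusted p = 0.0843) and did not pass.

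Junb, which often counters Jun and is a classic early response gene, read 423, 450, 584 and 326 in CAC tumors, against 897 and 508 in CAC controls. It read 227, 426, 358, 585 and 1003 in sporadic tumors, against 1180, 1596 and 1664 in sporadic controls. Only the sporadic model separated tumors from controls. Junb fell there (log2 change -1.67 ± 0.42, adjusted p = 0.00700), and its CAC change was -0.63 ± 0.49 (adjusted p = 0.363).

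Jun, the main partner of the Fos proteins, gave opposite directions by its 2 probe sets. Probe set 1417409_at read 3013, 3981, 2351 and 2314 in CAC tumors, against 3198 and 3028 in CAC controls, and the groups overlapped. It read 1501, 2093, 3436, 4108 and 5591 in sporadic tumors 1 to 5, against 6355, 7456 and 6566 in sporadic controls, without overlap. By this probe set Jun fell in sporadic tumors (log2 change -1.17 ± 0.37, adjusted p = 0.0247), a call lost without sporadic tumor 2 or without any 1 of the 3 sporadic controls (adjusted p 0.0526 to 0.0743), and with only sporadic arrays fitted (0.0725). The CAC change was -0.13 ± 0.44 (adjusted p = 0.936).

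Probe set 1448694_at read 563, 858, 536 and 567 in CAC tumors, against 360 and 334 in CAC controls. It read 914, 1126, 608, 732 and 950 in sporadic tumors, against 414, 539 and 565 in sporadic controls. Here every tumor was above every control of its model. By this probe set Jun rose in CAC tumors (log2 change 0.84 ± 0.25, adjusted p = 0.0223) and in sporadic tumors (0.76 ± 0.21, adjusted p = 0.0135). The CAC call was lost without CAC control 1 (0.0760), without CAC control 2 (0.119) and with only CAC arrays fitted (0.0551). The sporadic call was lost without sporadic control 1 (0.0659).

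**Figure D1:**
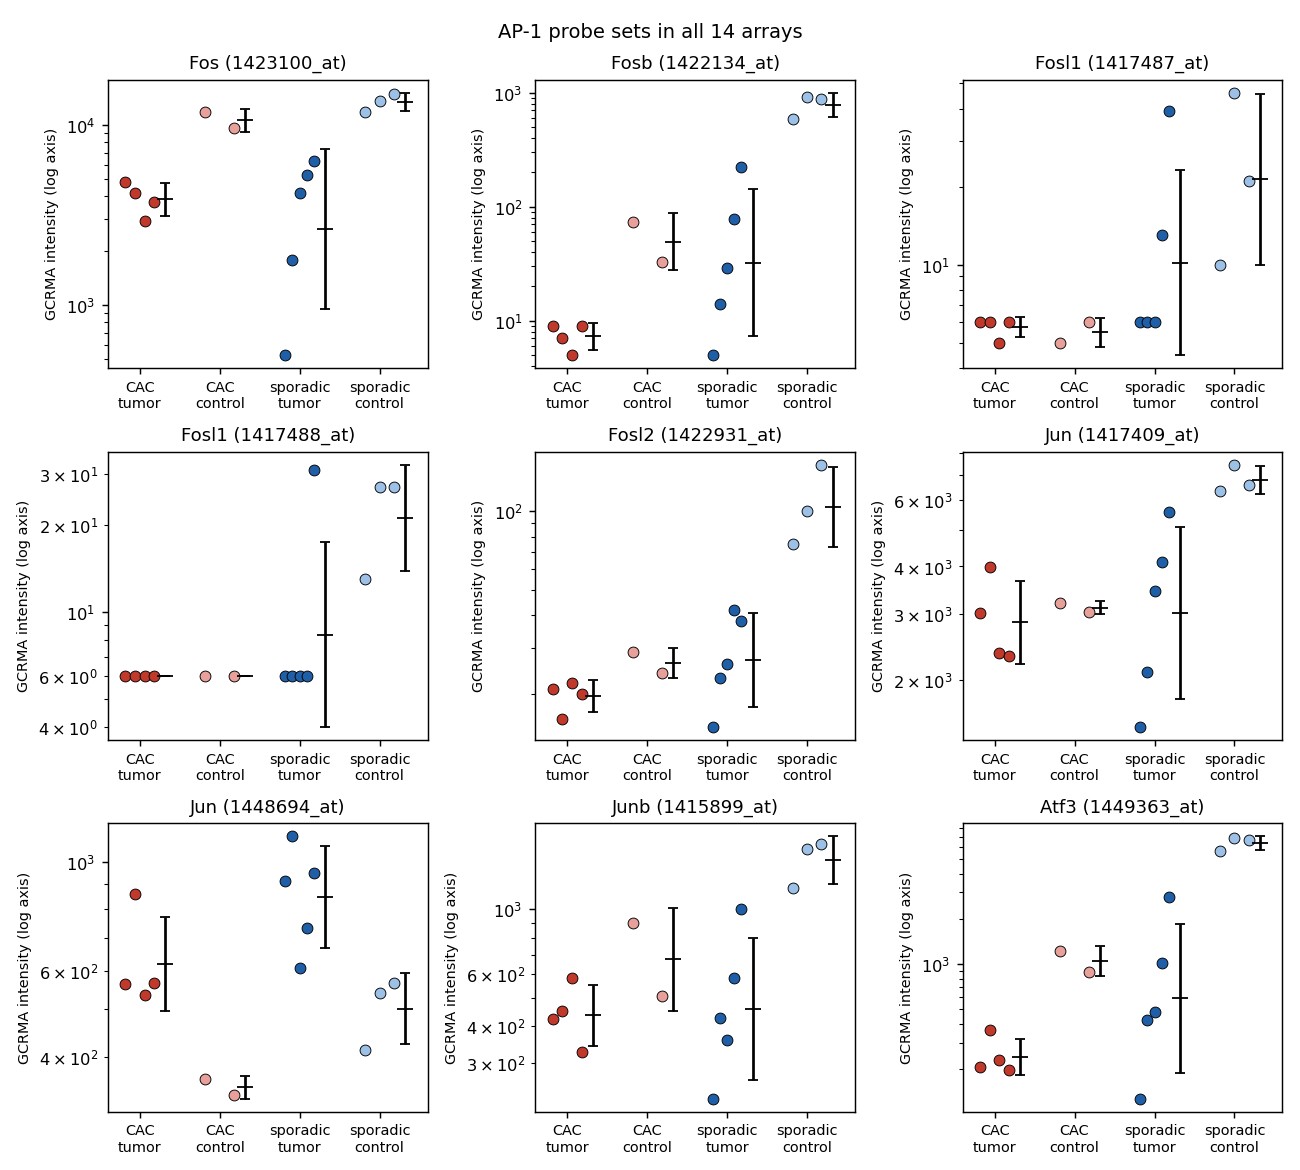
GCRMA intensity (log axis) of the 9 AP-1 probe sets in each array, by group; bars give the geometric mean and 1 SD of log2 values. Fos, Fosb and Atf3 are lower in every tumor than in every control of the same model, Jun probe set 1448694_at is higher, and the sporadic tumors spread most.

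Since the 2 Jun probe sets disagreed, their ratio was taken within each array, a choice made after their values had been seen. The log2 ratio of 1448694_at over 1417409_at was -2.42 to -2.03 in CAC tumors, against -3.18 to -3.15 in CAC controls. It was -0.72 and -0.89 in sporadic tumors 1 and 2 and -2.56 to -2.49 in sporadic tumors 3 to 5, against -3.94 to -3.54 in sporadic controls. All 9 tumors lay above all 5 controls. The mean ratio was higher in tumors than in controls by 0.97 in the CAC model and by 1.93 in the sporadic model, given as a description with no test, since the ratio was formed because the probe sets disagreed. The transcripts or regions behind each probe set were not analysed here. No single direction for Jun mRNA is therefore given.

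**Figure D2:**
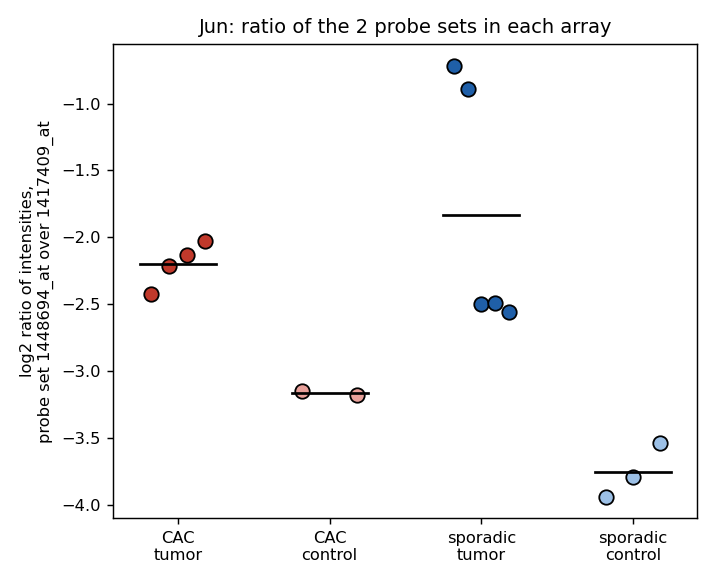
Log2 ratio of the intensities of Jun probe sets 1448694_at and 1417409_at in each array, by group, with the group mean as a line. All tumors lie above all controls, and sporadic tumors 1 and 2 stand apart at -0.72 and -0.89.

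Counted over the set, sporadic tumors had 6 of 9 probe sets that fell, 1 that rose and 2 that did not pass, where 28.2% of all probe sets fell and 17.8% rose. The 6 belong to Fos, Fosb, Fosl2, Jun, Junb and Atf3. All sporadic tumors were below all sporadic controls in 6 of 9 probe sets (24.6% of all probe sets), and the median log2 change was -1.67, against -0.04 over all probe sets. The falls of Fosb, Fosl2, Junb and Atf3 passed in every alternative run, those that left out an array included. In CAC tumors 1 of 9 rose and 0 fell by limma over all 14 arrays, where 14.2% of all probe sets rose and 25.6% fell (39.9% in all); 2 fell at an unadjusted p under 0.05. All CAC tumors were below both controls in 4 of 9 probe sets (29.1% of all probe sets), and the median log2 change was -0.43, against -0.05 over all probe sets.

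The CAC result depended on which arrays shared the estimate of spread. With only the 6 CAC arrays fitted, Fos (adjusted p = 0.0120), Fosb (0.0127) and Atf3 (0.0104) fell. With sporadic tumor 1 left out, the same 3 passed (0.0209, 0.0357 and 0.0257), and with sporadic tumor 5 left out Fosb and Atf3 passed (0.0316 and 0.0251). In the fit over all 14 arrays, the spread among sporadic tumors enters the error of the CAC comparison too. With the replicate number as a block, Fosb and Atf3 passed in CAC tumors too (adjusted p 0.0269 and 0.0353). That fit also gives sporadic tumor 5 no weight, and the numbers do not pair the samples, so it is no separate support. The authors' deposited table gives corrected p-values of 0.0132 for Fos, 0.0127 for Fosb and 0.0118 for Atf3 in the CAC model, all listed as down by 2.75-, 6.72- and 4.35-fold. For CAC tumors it lists Jun 1448694_at up 1.78-fold, with a corrected p-value of 0.0541. In the sporadic model the authors' deposited table lists Fosb down 24.59-fold (corrected p-value 0.0218), Fos down 5.05-fold (0.0584) and Jun 1417409_at down 2.25-fold (0.0649). Also listed there are Fosl2 (0.00828), Junb (0.0253) and Atf3 (0.0232), all down, and Jun 1448694_at, up (0.029). The 2 Fosl1 probe sets have 0.315 and 0.141.

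**Figure D3:**
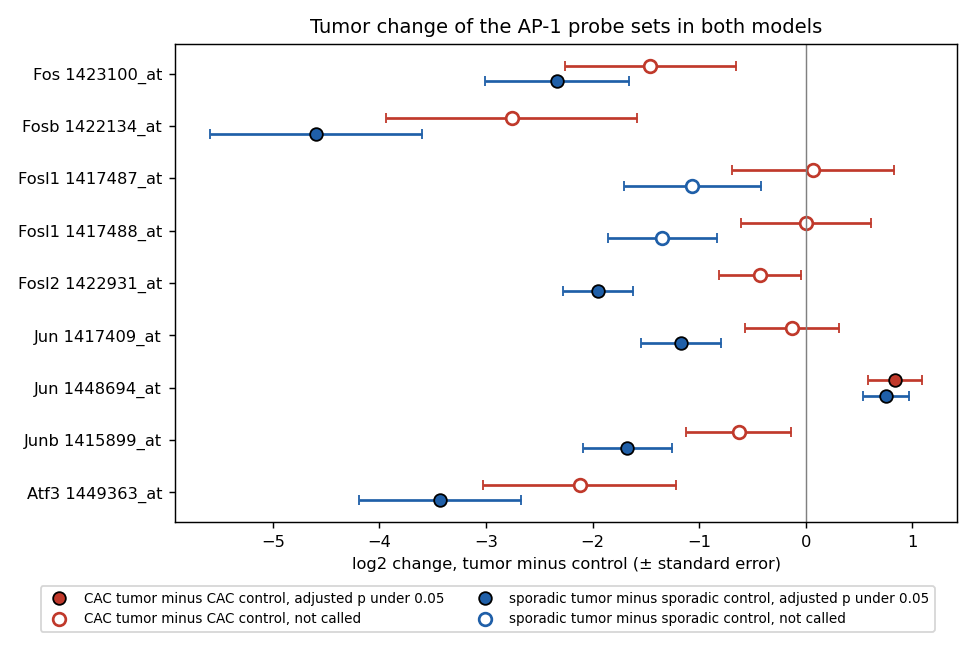
Log2 change of each AP-1 probe set, tumor minus control, with its standard error, in the CAC model (red) and the sporadic model (blue); filled points have an adjusted p under 0.05. In the sporadic model 6 probe sets fell, and Jun 1448694_at rose in both models.

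Direct comparison of the models gave few calls. Between CAC and sporadic tumors 0 of 9 probe sets passed in limma (7.88% of all probe sets rose and 7.58% fell, 15.5% in all), 2 had an unadjusted p under 0.05, both lower in CAC tumors, and all 9 overlapped between the groups. Of all probe sets, 7.24% were lower and 6.81% higher in every CAC tumor than in every sporadic tumor. Fosb had the largest of these differences, with a log2 difference of -2.15 ± 0.91 (adjusted p = 0.153), followed by Atf3 with -1.30 ± 0.70 (adjusted p = 0.273). Without sporadic tumor 1, both passed (adjusted p 0.0331 and 0.0440). Fosb lay at the floor in all CAC tumors, so the size of its difference is not fully measured.

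Between the controls, all 9 probe sets were lower in both CAC controls than in every sporadic control, which held for 17.1% of all probe sets. Fosl2 alone passed (log2 difference -1.98 ± 0.41, adjusted p = 0.00881), where 6.4% of all probe sets fell, 7.61% rose and 14% changed in all. That call was lost without CAC control 2 (adjusted p = 0.0587) and with only the control arrays fitted (0.0804). The differences of Fosb (-3.98 ± 1.24, adjusted p = 0.0591) and Atf3 (-2.61 ± 0.95, adjusted p = 0.0964) were larger but did not pass in the fit over all arrays. With only the control arrays fitted, Fosb (adjusted p = 0.0320), Jun 1417409_at (0.0115) and Atf3 (0.00908) passed. Fosb also passed with the offset (0.0152), without the dimmer probe sets (0.0279) and with the replicate block (0.0488). Without sporadic tumor 5, 5 probe sets passed, and the block fit gives that array no weight either. Experimental block and model cannot be told apart here, and 18S signal was higher on all arrays of block 1 than on all arrays of block 2, as given above.

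The difference of the tumor changes, CAC minus sporadic, does not depend on an additive block effect. For this contrast 0 of 9 probe sets passed in limma, against 7.69% of all probe sets (3.5% positive and 4.2% negative), and 1 (Fosl2) had an unadjusted p under 0.05. The difference was 1.52 ± 0.51 for Fosl2 (adjusted p = 0.110), 1.83 ± 1.54 for Fosb (0.545), 1.31 ± 1.18 for Atf3 (0.569) and 0.88 ± 1.05 for Fos (0.697). For Fosb, Atf3 and Fos the standard errors are of the order of the differences. Unlike falls in the 2 models were thus neither shown nor bounded closely, while for Fosl2 the unadjusted p was 0.0125. Fosb was at the floor, 5 to 9, in all CAC tumors, from 74 and 33 in CAC controls. The floor thus limits how large a Fosb fall could be measured in the CAC model. Fosl1 1417488_at passed without sporadic tumor 5 (adjusted p = 0.00618) and with the replicate block (0.0316), which gives that tumor no weight. But Fosl1 1417488_at read 6, the floor, on all CAC arrays and could not fall there, so these calls restate its sporadic change.

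In all 9 probe sets the sporadic tumors differed among themselves more than the arrays of any other group, by the SD of log2 intensity. The SD of log2 intensity over the 5 tumors was 2.13 for Fosb, 1.64 for Atf3, 1.47 for Fos and 0.80 for Junb, against a median of 0.23 over the 10226 probe sets with a mean intensity of at least 32. Only 0.0587% of those probe sets had a larger SD than Fosb, 0.372% than Atf3 and 0.469% than Fos. In the 4 CAC tumors the SD was 0.40 for Fosb, 0.41 for Atf3 and 0.30 for Fos, against a median of 0.26. Jun 1448694_at had the smallest SD of the set in sporadic tumors, 0.35.

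Sporadic tumor 5 held the highest value of its group in 7 of 9 probe sets, against 10.5% of all probe sets and 16.4% of the brighter ones. Sporadic tumor 1 held the lowest in 6 of 9, against 11% of all and 18.8% of the brighter ones. Fos, Fosb, Atf3 and Jun 1417409_at put the 5 tumors in the same order. Other early response genes did so too: Egr1, a zinc finger factor, read 211, 767, 1455, 2118 and 3331 in sporadic tumors 1 to 5, and Nr4a1, an orphan nuclear receptor, read 72, 308, 390, 843 and 2047. Of 17 such genes with a mean of at least 32, 12 were highest in sporadic tumor 5 and 12 lowest in sporadic tumor 1. The same tumors also differed in cell makeup: the fibroblast and matrix sum was 16595, 14935, 8416, 10132 and 10678 in sporadic tumors 1 to 5, and the epithelial sum was 37469, 38534, 41958, 44597 and 43945. Vim, the largest term of the matrix sum, read 5805, 6808, 4916, 6884 and 8036, whereas Col1a1 read 1068, 506, 223, 157 and 93. Of 8 such markers with a mean of at least 32, only Vim was highest in sporadic tumor 5, and 0 were lowest in sporadic tumor 1. Pdgfra was highest in sporadic tumor 2, at 211. In sporadic tumors 1 to 5 the myeloid sum was 3180, 7724, 5249, 4858 and 5370. The smooth muscle sum was 1123, 402, 271, 281 and 314, and the endothelial sum was 508, 276, 252, 176 and 206. Of 7 heat shock genes, 5 were lowest in sporadic tumor 1 and 1 was highest in sporadic tumor 5. The part of cell makeup and of handling in this spread was not tested.

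**Figure D4:**
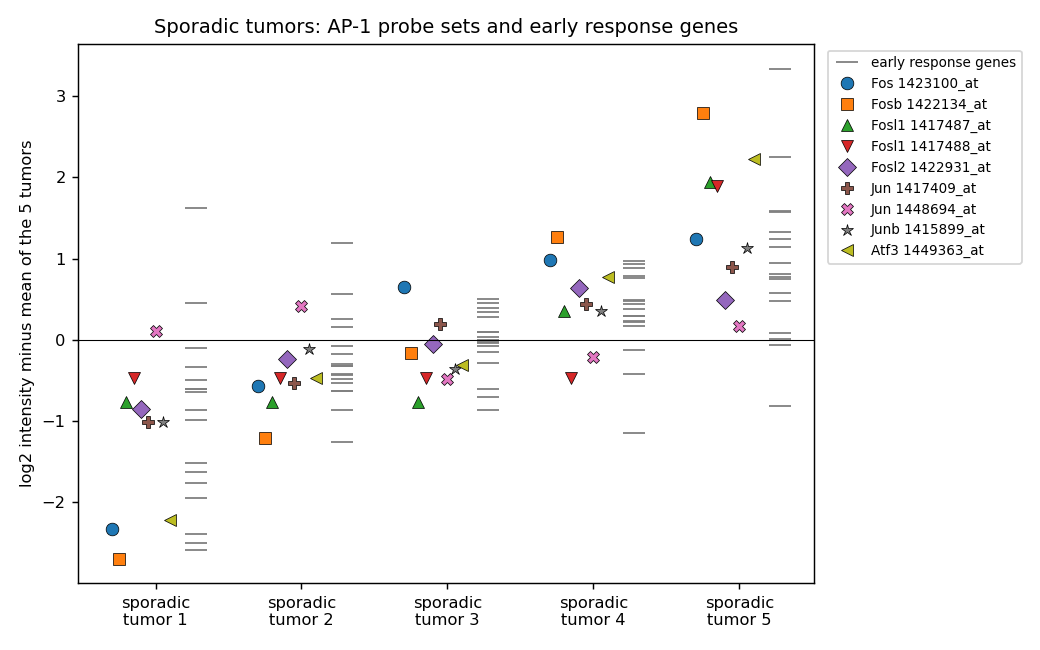
Log2 intensity minus the mean of the 5 sporadic tumors, for the 9 AP-1 probe sets (coloured symbols) and 17 other early response genes (grey dashes), by tumor. Sporadic tumor 5 is highest in 7 of 9 AP-1 probe sets and sporadic tumor 1 lowest in 6 of 9.

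Genes whose pattern over the 14 arrays was most like that of each member were named by Pearson's r on log2 intensity, searched over 6646 genes with a mean of at least 32. The values describe arrays that share group differences, and carry no test. Fosb and Atf3 were nearest to each other (r = 0.984), followed for both by Zfp36, which encodes a protein that speeds the decay of unstable mRNAs (0.969 with Fosb, 0.983 with Atf3). Next came Ifrd1 for Fosb (0.960) and Ddit3, a stress-induced bZIP factor, for Atf3 (0.958). Fos was most like Btg2, an antiproliferative early response gene (0.973), then Rnd3 (0.927) and Fibp (0.914). Junb was most like Zfp36 (0.957), Ier2 (0.945) and Atf3 (0.937), and Jun 1417409_at like Nr4a1 (0.917), Zfp36 (0.916) and Egr1 (0.914). Fosl2 was most like Trib1 (0.965), Arl4a (0.963) and Ifrd1 (0.946), and Fosl1 like Egr2 (0.929), Cish (0.894) and St7l (0.885).

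Among 18 other AP-1 and bZIP partners, 4 rose and 2 fell in CAC tumors and 4 rose and 7 fell in sporadic tumors, with 1 probe set per gene. Of all 13095 genes, 16% rose and 25.6% fell in CAC tumors, and 19.6% rose and 29.3% fell in sporadic tumors. Batf2, a small partner of Jun proteins, fell in both models (log2 change -2.47 ± 0.37 in CAC and -3.33 ± 0.31 in sporadic tumors). The other call among the falls in CAC tumors, Batf, rests on 1 rounded unit at the floor. In the sporadic model, too, Batf (7 in all tumors, 8 in all controls) and Maf (5 or 6 in tumors, 6 in controls) differed by no more than 1 such unit. Mafg, a small Maf protein, rose in both (2.09 ± 0.26 and 2.67 ± 0.22). Ddit3 fell in sporadic tumors (-2.77 ± 0.52). Jund, the remaining Jun gene and named after its values were seen, fell in sporadic tumors (-1.56 ± 0.27, adjusted p = 0.000713) and read 769, 966, 786 and 364 in CAC tumors, against 1114 and 1095 in CAC controls, without passing (adjusted p = 0.104).

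Crem and Mafk changed differently between the models. Crem, a cAMP-responsive bZIP factor, read 22, 38, 40 and 46 in CAC tumors, against 7 and 6 in CAC controls. It read 28, 27, 27, 28 and 47 in sporadic tumors, against 23, 29 and 28 in sporadic controls. The low values were thus those of the CAC controls, and the difference of the tumor changes was 2.24 ± 0.39 (adjusted p = 0.00363). For Mafk the difference was 1.98 ± 0.42 (adjusted p = 0.0145), with a fall in sporadic tumors (-2.28 ± 0.27) and a CAC change of -0.29 ± 0.32. The high values were those of the sporadic controls, at 222, 278 and 297, against 85 and 77 in CAC controls. Between CAC and sporadic tumors Mafk did not pass (0.28 ± 0.25, adjusted p = 0.565). The Mafk call was lost without CAC control 2 (adjusted p = 0.0555).

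Among 18 co-induced early response genes, 5 rose and 3 fell in CAC tumors, where 16% of all genes rose and 25.6% fell. In sporadic tumors 6 rose and 8 fell, where 19.6% of all genes rose and 29.3% fell. The median log2 changes of the list were -0.43 and -1.10. Those that fell in sporadic tumors included Nr4a1 (log2 change -3.21 ± 0.83). Ccn2, a matrix-associated growth regulator, rose in both models (5.22 ± 0.88 in CAC and 4.35 ± 0.74 in sporadic tumors), as did Ier3 (4.74 ± 0.51 and 4.20 ± 0.43), and Socs3, a feedback inhibitor of STAT3, rose in CAC tumors (3.59 ± 0.49). Ccn1 changed differently between the models (difference 3.24 ± 0.81, adjusted p = 0.0339). It read 200, 260, 138 and 132 in CAC tumors, against 30 and 28 in CAC controls. It read 220, 406, 860, 849 and 1479 in sporadic tumors, against 1097, 1009 and 839 in sporadic controls. The low values were thus those of the CAC controls, and CAC tumors were on average lower than sporadic tumors (-1.84 ± 0.48, adjusted p = 0.0252). The call for the difference of changes was lost in 10 of 20 alternative settings, among them the omission of either CAC control (highest adjusted p 0.0950). The count of falls in CAC tumors ranged from 1 to 5 over the 21 alternative settings.

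Of 16 textbook AP-1 target genes, 9 rose and 2 fell in CAC tumors, where 16% of all genes rose and 25.6% fell. In sporadic tumors 9 rose and 1 fell, where 19.6% of all genes rose and 29.3% fell. The median log2 change was 2.35 in CAC and 1.53 in sporadic tumors, against -0.03 and -0.04 over all genes. Among the falls, Plau lay at the floor in both models, and Vegfa, an angiogenic factor, fell in CAC tumors (-0.76 ± 0.20). Mmp10, a stromelysin, read 2042, 696, 551 and 553 in CAC tumors, against 6 and 6 in CAC controls. It read 1380, 1003, 272, 90 and 120 in sporadic tumors 1 to 5, against 6, 5 and 6 in sporadic controls. Mmp13, a collagenase, read 1811, 460, 377, 30 and 51 in sporadic tumors 1 to 5, and Cd44, a hyaluronan receptor, rose in both models (5.88 ± 0.27 in CAC and 6.35 ± 0.23 in sporadic tumors). Mmp10 and Mmp13 were highest in sporadic tumor 1, where Fos, Fosb and Atf3 were lowest, but the targets did not share 1 order. Timp1 and Il11 were also highest in sporadic tumor 1, and Cd44, Mmp9, Hmox1 and Spp1 in sporadic tumor 2. Ccnd1 was highest in sporadic tumor 3, Ptgs2 in sporadic tumor 4, and Plaur and Vegfa in sporadic tumor 5. A relation between target and AP-1 levels was not tested. The list has other known inducers and many of its genes are also expressed by stromal and myeloid cells, whose marker sums were higher in the tumors, as given above; their part was not tested. Ptgs2, the inducible cyclooxygenase, had the higher change in CAC tumors (difference of changes 1.90 ± 0.48, adjusted p = 0.0375), but this call was lost in 12 of 19 alternative settings, all of which left out an array (highest adjusted p 0.0972).

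Of 19 MAP kinases and their activators, 3 rose and 7 fell in CAC tumors, and 4 rose and 6 fell in sporadic tumors. Of all genes, 16% rose and 25.6% fell in CAC tumors, and 19.6% rose and 29.3% fell in sporadic tumors. No excess over these shares was tested. Over 21 alternative settings the CAC counts ranged from 0 to 3 rises and from 4 to 8 falls, with 0 and 4 without CAC control 2. Of the CAC falls, those of Mapk10 (7 in all CAC tumors, against 9 and 11 in CAC controls) and Mapk12 (5 in all CAC tumors, against 6 and 7) rest on a few rounded units at the floor. Map2k6, an activator of p38, fell in both models (-1.94 ± 0.41 in CAC and -2.96 ± 0.34 in sporadic tumors), as did Map2k1, which activates ERK (-1.56 ± 0.27 and -1.59 ± 0.23), and Mapk13, a p38 kinase, with geometric means of 906 in CAC tumors against 1816 in CAC controls and of 356 in sporadic tumors against 1469 in sporadic controls. Of 7 MAP kinase phosphatases, 1 rose and 1 fell in CAC tumors, and 2 rose and 2 fell in sporadic tumors. Dusp1, itself an early response gene, fell in both (-1.87 ± 0.53 and -2.48 ± 0.45), Dusp6, a feedback inhibitor of ERK, rose in CAC tumors (1.16 ± 0.41), and Dusp10 rose while Dusp8 fell in sporadic tumors (1.85 ± 0.37 and -1.47 ± 0.32). The CAC call of Dusp1 was lost in 4 of 21 alternative settings, the omission of either CAC control among them, and that of Dusp6 in 13 of 21, with any 1 CAC array left out among them (highest adjusted p 0.0855 and 0.193). The CAC call of Mapk13 was lost without CAC control 2 (0.121).

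For the counts that follow, 16% of all genes rose and 25.6% fell in CAC tumors, and 19.6% rose and 29.3% fell in sporadic tumors. Of 7 genes for serum response factor and its cofactors, 1 rose and 1 fell in CAC tumors, and 2 rose and 1 fell in sporadic tumors. Elk3, an ETS factor that binds with it, rose in both models (3.89 ± 0.17 in CAC and 4.69 ± 0.14 in sporadic tumors) and Elk4 rose in sporadic tumors (1.79 ± 0.24), while Mrtfb fell in both within the floor range, in sporadic tumors in only 6 of 20 alternative settings. Of 7 regulators of Jun and Fos protein, 3 rose in CAC tumors and 4 in sporadic tumors, and the others did not pass. They included Fbxw7, part of a ubiquitin ligase that acts on Jun, which rose in both models (0.93 ± 0.21 in CAC and 0.85 ± 0.18 in sporadic tumors). Of 7 heat shock genes, 4 rose in CAC tumors and the others did not pass, and 3 rose and 1 fell in sporadic tumors. Hspb1 rose in both (5.37 ± 0.30 and 5.84 ± 0.26), Dnaja1 rose in both (1.46 ± 0.21 and 0.96 ± 0.17), Hspd1 rose in CAC tumors (1.33 ± 0.22) and Dnajb1 fell in sporadic tumors (-1.51 ± 0.49), a call lost in 4 of 21 alternative settings, those without sporadic tumor 2, sporadic control 2 or sporadic control 3 among them (highest adjusted p 0.0852). Hspe1 had the higher change in CAC tumors (difference of changes 1.21 ± 0.31, adjusted p = 0.0419), a call lost in 11 of 20 alternative settings, among them the omission of either CAC control (highest adjusted p 0.170). It read 779 and 862 in CAC controls, against 1558, 1495 and 1227 in sporadic controls. Between CAC and sporadic tumors Hspe1 did not pass (0.42 ± 0.19, adjusted p = 0.176).

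**Figure D5:**
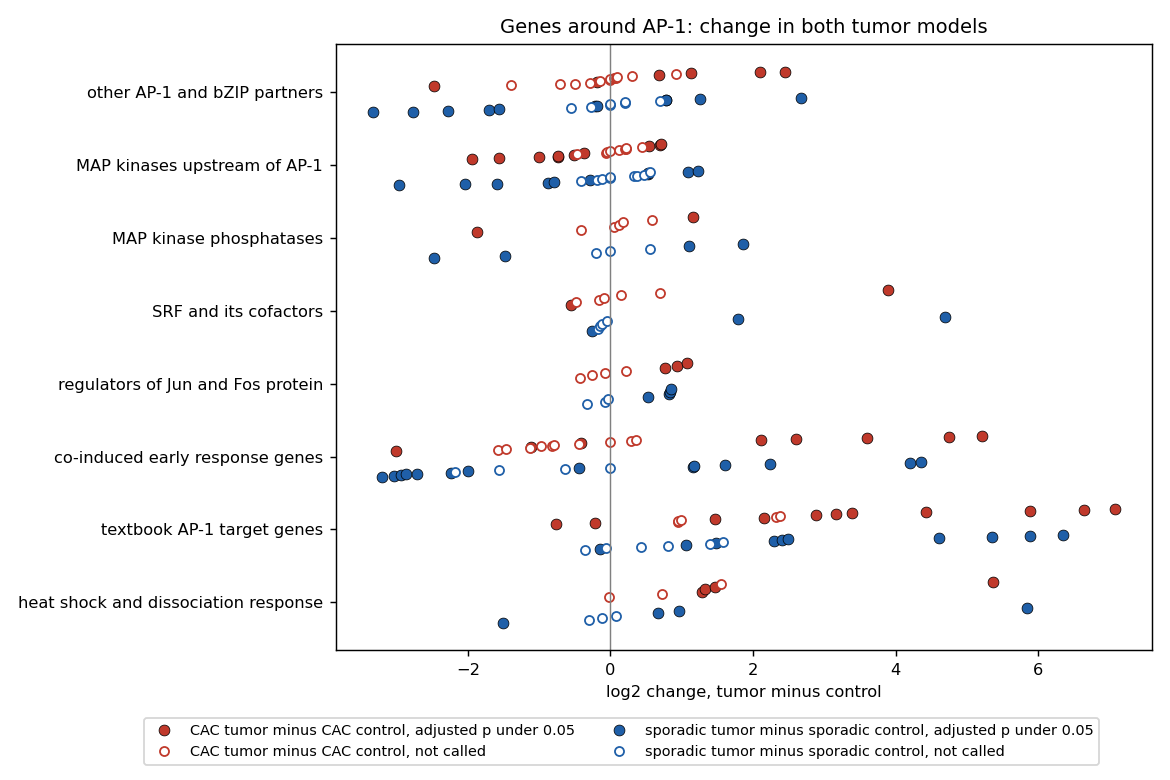
Log2 change, tumor minus control, of each gene in 8 lists around AP-1, in the CAC model (red) and the sporadic model (blue); filled points have an adjusted p under 0.05. Target genes lie mostly to the right, with 9 of 16 that rose in each model, while early response genes lie on both sides. Of all genes, 16% rose in CAC tumors and 19.6% in sporadic tumors.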

How the data were processed

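The deposited table holds intensities that the authors computed with GCRMA, per the submitters' processing notes (version not given), for 22690 probe sets of an Affymetrix array on 14 arrays. It also holds the authors' fold change, a ratio, and their corrected p-value, per the file headers; no label or header names their test. The value table of the series matrix holds the same intensities. Intensities are whole numbers; detection calls were not used here, and the number of arrays limits the precision.

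After 64 control probe sets were left out, log2 intensities (no offset) of 22626 probe sets were fitted with 4 group means over all 14 arrays in limma 3.58.1 (R 4.3.3), where eBayes moderated 10 residual degrees of freedom with a prior of 0.543. P-values were adjusted by Benjamini-Hochberg over all probe sets in each of 5 comparisons and called at 0.05; errors after ± are standard errors. Tested on simulated data for the CAC comparison, 45% of log2 changes of 1 and 91% of changes of 2 were recovered. That was among 22626 probe sets, with 12 false calls. Changes were set in 100 probe sets of each size, all with a mean intensity of at least 32. Each probe set had the same spread in all groups, and no other differences were set. The spread of Fosb, Atf3 and Fos was unequal between groups, so these shares do not apply to the AP-1 members.

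The members and the 8 pathway and 6 marker lists were chosen with earlier results of these data known. Up to 3 passing genes with the largest change were named per list and comparison. Some genes that this rule gives are not reported here. Each gene of a list is represented by the probe set with the highest mean. Replicate numbers do not pair the samples: correlations of same-numbered deviations were -0.04 to -0.03 in the CAC model and -0.08 to 0.06 in the sporadic model. Promoters came from RefSeq (GRCm38.p6). Alternatives were quantile normalization, an offset of 16, removal of the dimmer 50% of probe sets, trend and robust options, only the groups compared, the replicate block, the series matrix values and each array left out. Repeats for the lists, their named genes and the Jun ratio were added after the data had been seen.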

Additional observations from a re-analysis of the deposited data

Results flagged for a closer look

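In 3 probe sets, 1 array stood far from the others of its group, by its gap to the nearest array over the range of the group (Dixon's criterion); chance gives about 1 in 20 groups such a gap. Fosl1 1417488_at read 31 in sporadic tumor 5 and 6 in the other 4 sporadic tumors. Jun 1448694_at read 858 in CAC tumor 2, with the other CAC tumors at 536 to 567. Fosl1 1417487_at read 5 in CAC tumor 3 and 6 in the other CAC tumors, a step of 1 rounded unit at the floor.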

How the results depend on the processing

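Of 926 repeats of single probe set results, 862 kept their direction and their side of the threshold. The series matrix values are the same intensities, so repeats with them could not differ. They are counted among the 862 and wherever alternative settings are numbered. Where the count of called probe sets differed, it was as follows. In CAC tumors 1 probe set rose, but 0 with only the groups compared and 0 to 1 with an array left out; 0 fell, but 2 without the dimmer probe sets, 3 with only the groups compared, 2 with the replicate block, and 0 to 3 with an array left out. In sporadic tumors 1 rose (0 to 1 with an array left out, 0 without sporadic control 1) and 6 fell (4 to 8). Between tumors 0 fell (2 without sporadic tumor 1). Between controls 1 fell, but 2 with quantile normalization, the offset or the dim filter, 3 with only the groups compared or the replicate block, and 0 to 5 with an array left out (0 without CAC control 2, 5 without sporadic tumor 5). For the difference of changes 0 rose, but 1 with the replicate block and 1 without sporadic tumor 5. Replicate 5 exists only among sporadic tumors, so the block fit gives that array no weight; the numbers do not pair the samples.

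Signs turned only in values that did not pass, the largest of them the Fos difference of 0.54 between CAC and sporadic tumors. For Fosl1 1417487_at in CAC tumors the change was -0.052 with the block and -0.066 (without CAC control 1) to 0.20 with an array left out. Between CAC and sporadic tumors, Fos was -0.041 (without sporadic tumor 1) to 0.85 with an array left out. There Jun 1417409_at was 0.14 with the block and -0.33 to 0.14 with an array left out, and Junb was 0.21 with the block and -0.33 to 0.21 with an array left out. For Jun 1448694_at the difference of changes was -0.077 to 0.22 with an array left out. The tumor minus control difference of the Jun ratio, 1.45 over both models, was 1.31 to 1.54 over its 16 repeats, with no test. Among the lists, 73 of 672 repeated counts moved by over 1.5 times. Low intensities limit Fosl1 most, since rounding leaves only a few units there.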
